A study of Mus musculus with 15 samples.

Results

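Copy number at olfactory and vomeronasal receptor genes was examined in liver tumours and unaffected livers by array comparative genomic hybridisation (CGH), a method that binds DNA from a sample and a reference, each with its own dye, to the same set of probes. The probes were chosen by name alone, as the autosomal, non-control probes whose gene name on the array starts with Olfr, V1r, V2r or Vmn. This rule took 731 of 40726 autosomal probes, or 1.79% of them, and 659 gene names. By family, 666 probes were named for olfactory receptors (Olfr), 53 for V1r vomeronasal receptors and 12 for V2r vomeronasal receptors, all of the latter under the name Vmn2r. The receptor probes lay on 17 of 19 autosomes, and chromosomes 2, 7 and 9 together held 425 of them. Another 4 probes with such names were not on an autosome and were not used.

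Olfactory receptors are G protein-coupled receptors that bind odorants in the sensory neurons of the nose, and they form the largest gene family of the mouse. Each sensory neuron expresses a single receptor gene, from a single allele. The V1r and V2r families bind pheromones and related cues in the vomeronasal organ. All 3 families grew by tandem duplication and so lie in clusters of similar genes, and such clusters are known places of copy number difference between animals of a species. The probes here measure DNA, not expression of the genes.

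The DNA came from 8 tissues of 3 mice, and every tissue was from an animal with both Mad2l1 alleles floxed, labelled Mad2(f/f), and Albumin-Cre, which is expressed in hepatocytes. Mouse 3151, a female of 16.4 months, was Mad2(f/f) p53(f/+) with 1 floxed Trp53 allele and gave HCC 1, HCC 2 and unaffected liver. Mouse 3760, a male of 13.8 months, was Mad2(f/f) p53(f/f) with 2 floxed Trp53 alleles and gave HCC 2 and unaffected liver, and mouse 4033, a male of 13.9 months of that same genotype, gave HCC 1, HCC 2 and unaffected liver. HCC stands for hepatocellular carcinoma. The strain of the mice was C57BL/6.129-Mad2flox,p53flox,AlbuminCre, and the reference was normal liver DNA of C57BL/6.129 mice of the opposite sex, wild type per the study's methods. Mouse 3151 was therefore measured against a male reference, and mice 3760 and 4033 against a female one. In every contrast that sets mouse 3151 apart, the mouse, its sex, its age, its Trp53 genotype and its reference cannot be told apart.

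The 15 arrays covered both dye orientations of 7 tissues and 1 orientation of HCC 2 of mouse 3760. Median signal over background ranged from 3.72 to 7.95 over arrays and dyes, and 705 of the 731 receptor probes (96.4%, against 95.4% of all autosomal probes) were well above background on every array. All values below are levels, meaning the log2 ratio of tissue over reference minus the median of the probe's chromosome in that tissue, so that gain or loss of a whole chromosome is taken off. The X chromosome, present in 2 copies in females and 1 in males, gives the scale of a doubling or halving, a larger step than 1 autosomal copy gained. Its mean lay 0.88 above the autosomes in the unaffected liver of mouse 3151 and 0.87 and 0.92 below them in the livers of mice 3760 and 4033. Over the receptor probes, levels from the 2 dye orientations of one tissue correlated with r between -0.23 and 0.06, against -0.10 to 0.28 over all autosomal probes. These are correlations across probes, which are not replicates, and at this agreement the level of a single probe in a single tissue was mostly noise.

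The probes that carry the results are given here, with positions as the files state them, in a genome build the files do not name. The first 8 differed between mice, V1rf2 stood apart in every tissue, and the last pair are the other probes for Olfr745. Capitals mark the longest run of bases that the probe shares, on either strand, with another autosomal probe searched.
Olfr1308, chr2:111800251-111800310: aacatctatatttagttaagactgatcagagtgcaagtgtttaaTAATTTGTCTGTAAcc
Olfr207, chr16:59361579-59361638: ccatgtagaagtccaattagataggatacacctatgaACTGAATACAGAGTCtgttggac
Olfr745, chr14:51262595-51262648: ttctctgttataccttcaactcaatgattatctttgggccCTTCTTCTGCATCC
Olfr1302, chr2:111620536-111620595: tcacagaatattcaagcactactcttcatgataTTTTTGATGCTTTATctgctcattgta
Olfr113, chr17:37711761-37711811: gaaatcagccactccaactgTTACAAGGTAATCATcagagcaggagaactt
Olfr307, chr7:93483953-93484012: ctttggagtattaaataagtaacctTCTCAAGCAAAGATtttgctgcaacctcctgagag
V1rc15, chr6:66502263-66502322: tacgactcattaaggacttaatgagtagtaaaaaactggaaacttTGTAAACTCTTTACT
V1rd18, chr7:24788906-24788965: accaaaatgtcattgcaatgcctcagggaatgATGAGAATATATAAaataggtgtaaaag
V1rf2, chr17:21398320-21398379: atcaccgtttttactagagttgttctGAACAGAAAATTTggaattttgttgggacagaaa
Olfr745, chr14:51262390-51262444: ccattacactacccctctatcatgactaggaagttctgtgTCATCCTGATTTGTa
Olfr745, chr14:51262865-51262924: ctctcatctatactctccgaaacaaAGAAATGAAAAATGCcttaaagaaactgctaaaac

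The shared runs of these 11 probes were 13 to 15 bases long. Over all 731 receptor probes the longest shared run had a median of 14 bases, as it did over 800 other autosomal probes taken at even steps along the genome. Runs of 20 bases or more were found for 6 receptor probes, none of them printed above. Among the 800 there were 2. The Olfr113 probe shared its run of 15 bases with the probe for Olfr114, its neighbour on chromosome 17. GC content averaged 36.6% over receptor probes and 36.2% over all autosomal probes, and length 57.8 against 58.9 bases.

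Receptor probes as a group varied less around their chromosome than all autosomal probes did, a comparison given without a test. The standard deviation of their levels ran from 0.12 to 0.22 over tissues and was below that of all autosomal probes (0.15 to 0.25) in 8 of 8 tissues. The share of probes at least 0.3 from the chromosome median, the cut-off of the study's methods, was also below that of all probes in 8 of 8 tissues. In mouse 3151 it was 8.21% of receptor probes against 14.8% of all probes in HCC 1, 9.99% against 12.7% in HCC 2 and 9.58% against 11.3% in unaffected liver. In mouse 3760 it was 12.4% against 15.6% in HCC 2 and 2.33% against 2.62% in unaffected liver, and in mouse 4033 it was 2.74% against 5.08% in HCC 1, 13.4% against 13.6% in HCC 2 and 2.19% against 2.74% in unaffected liver. The gap was widest in HCC 1 of mouse 3151 and nearly nil in HCC 2 of mouse 4033. The tissues of mouse 3151 and HCC 2 of mouse 4033 were scanned on a second day, with 11.3% to 14.8% of all probes past the cut-off. Tissues scanned on the first day had 2.62% to 5.08% with both dye orientations, and HCC 2 of mouse 3760, with 1 array, had 15.6%. Differences in share between tissues were not separated from scan day and array number. The medians of the receptor probes stayed between -0.04 and 0.05. Since DNA of a whole tissue piece was labelled, a change in some of its cells and a smaller change in all of them cannot be told apart.

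**Figure D1:**
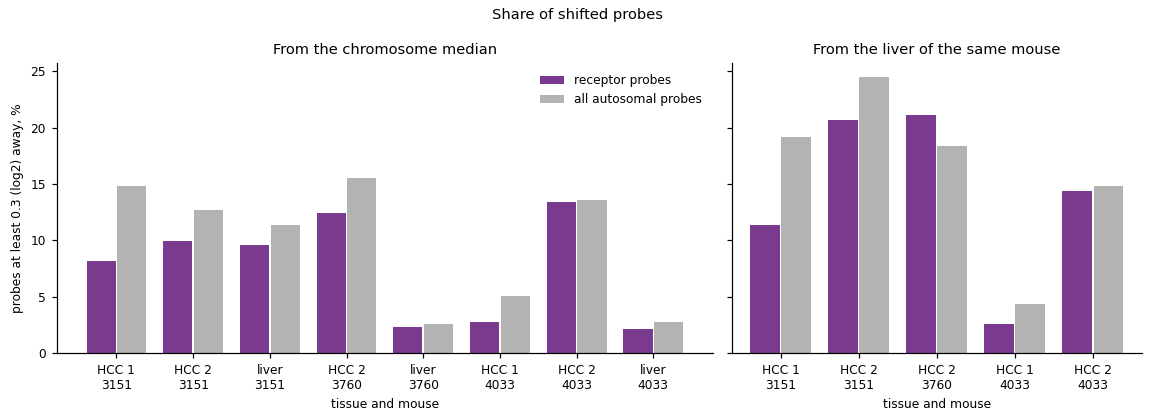
Bars give the percent of probes at least 0.3 (log2) away from the chromosome median in each tissue (left) and from the unaffected liver of the same mouse in each HCC (right), for receptor probes (purple) and all autosomal probes (grey). Receptor probes have the lower bar in 8 of 8 tissues on the left, and on the right HCC 2 of mouse 3760 is the exception, with 21.1% against 18.4%. Scan day and array number differ between tissues.

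Receptor clusters followed their chromosomes closely. Neighbouring receptor probes at most 1 Mb apart formed 56 groups, of which 31 held at least 5 probes and together 691 of the 731. The remaining 40 probes, 10 of them for V2r genes, lay in smaller groups. Of the 248 cluster means (31 clusters in 8 tissues), 87.5% lay within 0.1 of the chromosome median, 5 lay at 0.15 or more and 1 at 0.3 or more. Groups of other probes of like size were not averaged, so these shares are not shown to be particular to receptor clusters. The 11 clusters with at least 20 probes, which held 507 receptor probes, had means between -0.11 and 0.09 in every tissue.

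The largest cluster, on chromosome 2 from Olfr992 to Olfr142, spanned 4.85 Mb and held 126 receptor probes. Its mean was 0.00, -0.04 and -0.01 in HCC 1, HCC 2 and liver of mouse 3151, -0.02 and 0.05 in HCC 2 and liver of mouse 3760, and 0.02, -0.02 and -0.02 in HCC 1, HCC 2 and liver of mouse 4033, with standard deviations over probes of 0.08 to 0.21. The next in size, from Olfr547 to Olfr692 on chromosome 7 with 94 probes, ranged from -0.06 to 0.05, and that from Olfr881 to Olfr986 on chromosome 9 with 57 probes from -0.02 to 0.06. None of these 3 clusters came near the X chromosome difference in any tissue. The V1r clusters were alike in this. That on chromosome 7 from V1re11 to V1rj2 (15 probes) ranged from -0.04 to 0.06, and that on chromosome 17 from V1re5 to V1rf3 (13 probes) from -0.02 to 0.14.

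Only HCC 1 of mouse 3151 held clusters beyond 0.2, and in each the surrounding genes had moved too. The 5 probes from Olfr284 to Olfr234 on chromosome 15 averaged 0.34 ± 0.11 (SD over probes) in this tumour and between -0.06 and 0.05 in the other 7 tissues. The 163 other probes within 2 Mb of them averaged 0.29 in the same tumour. On chromosome 1 the 19 probes from Olfr16 to Olfr414 averaged -0.26 ± 0.15 beside -0.27 over 150 surrounding probes, and the 5 probes from Olfr1416 to Olfr1411 averaged 0.24 ± 0.14 beside 0.29 over 121 surrounding probes. With each probe set against its 100 nearest non-receptor probes instead of its chromosome, these 3 means became 0.05, 0.01 and -0.06. The receptor clusters had thus moved with wider stretches of chromosomes 15 and 1. The same 5 probes from Olfr1416 to Olfr1411 averaged -0.20 ± 0.11 in HCC 2 of mouse 3760, where the surrounding probes averaged 0.02. That value rests on a single array.

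**Figure D2:**
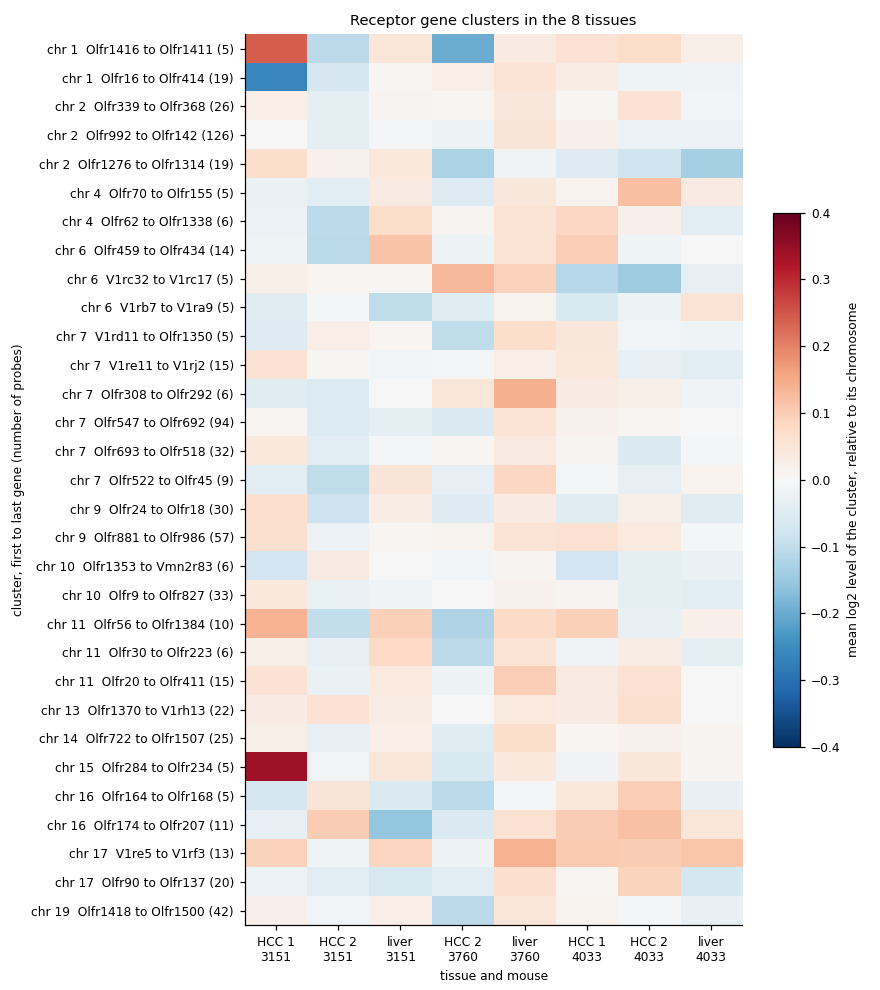
Each row is a receptor gene cluster, named by chromosome, first and last gene and number of probes, and each column a tissue. The colour is the mean log2 level of the cluster relative to its chromosome, and the cells of strongest colour are the chromosome 15 cluster (0.34) and both chromosome 1 clusters (0.24 and -0.26) in HCC 1 of mouse 3151.

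Single probes differed between animals. From 1 probe, a base difference under the probe and a copy number difference cannot be told apart, and neither was tested. The study took candidate genes common to its thymus and liver tumours to be array artifacts of the mixed strain background. Whether the 3 mice differed at a probe was tested with limma's F-test across all autosomal probes, with the spread between tissues of one mouse as error. Of the 731 receptor probes 8 were called at an adjusted p below 0.05, or 1.09%, beside 1.5% (609) of all 40726 probes tested, so receptor probes were not called more often than the array at large. The 8 were for Olfr1308, Olfr207, Olfr745, Olfr1302, Olfr113, Olfr307, V1rc15 and V1rd18, which makes 6 of 666 Olfr probes, 2 of 53 V1r probes and 0 of 12 V2r probes. At an unadjusted p below 0.05, 31 receptor probes (4.24%) and 6.6% of all probes passed. Mouse 3151 stood apart in 5 of them, mouse 3760 in 2 and mouse 4033 in 1, beside 377, 112 and 120 of the 609 probes called in all. The array files gave slides scanned on 2 days, with mouse 3760 on the first, mouse 3151 on the second and mouse 4033 on both, so values within a day are given for each gene.

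Olfr1308 and Olfr1302 are olfactory receptor genes of one cluster on chromosome 2, and their probes lie 180 kb apart. The level of Olfr1308 was 0.32, 0.15 and 0.49 in HCC 1, HCC 2 and liver of mouse 3151, -1.23 and -0.70 in HCC 2 and liver of mouse 3760, and -1.08, -1.40 and -1.01 in HCC 1, HCC 2 and liver of mouse 4033. Both males were far below the chromosome, and the female was slightly above it with orientations averaged. On forward arrays the female lay between -0.15 and 0.36 and the males between -1.27 and -0.67. On dye-swap arrays the female lay between 0.44 and 0.78 and the males between -1.53 and -0.73. Mouse 4033 was lower than mouse 3151 by 1.49 ± 0.16 (SE) and the difference of mouse 3760 from mouse 3151 was -1.29 ± 0.18 (limma, adjusted p = 0.00096 for the F-test). Within the second scan day, mouse 3151 exceeded mouse 4033 by 1.72, and within the first, mice 3760 and 4033 differed by 0.08. A probe that starts 259 bases before that of Olfr1308 had mouse means from -0.19 to -0.01.

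Olfr1302 had levels of 0.46, 0.29 and 0.34 in HCC 1, HCC 2 and liver of mouse 3151, -0.73 and -0.58 in HCC 2 and liver of mouse 3760, and -0.78, -0.31 and -0.74 in HCC 1, HCC 2 and liver of mouse 4033. Mouse 3151 was again above both males. Mouse 3151 exceeded mouse 3760 by 1.02 on the log2 scale (SE 0.14) and mouse 4033 by 0.97 (SE 0.13), with a limma adjusted p of 0.0030, and exceeded mouse 4033 by 0.68 within the second day. That day holds HCC 2 alone of mouse 4033, whose forward array gave -1.17 and whose dye-swap array gave 0.55, the latter among the values of mouse 3151. The 3 probes between the pair were not called, and 1 of them is for Olfr1305, which had mouse means of 0.07, -0.24 and -0.11 in mice 3151, 3760 and 4033. Their cluster, from Olfr1276 to Olfr1314 (19 probes), had means of 0.02 to 0.07 in mouse 3151 and of -0.13 to -0.01 in the males, the pair included.

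Olfr207 and Olfr307, named as olfactory receptor genes on chromosomes 16 and 7, were each high in 1 male. The name Olfr207 matched no current symbol. Olfr207 was at 1.13, 1.16 and 0.90 in HCC 1, HCC 2 and liver of mouse 4033, at -0.17 and 0.04 in HCC 2 and liver of mouse 3760, and at -0.31, 0.18 and 0.12 in HCC 1, HCC 2 and liver of mouse 3151. Only mouse 4033 was raised, by about the size of the X chromosome difference, which is that of a doubling. It exceeded mouse 3760 by 1.13 ± 0.16 (SE) and mouse 3151 by 1.07 ± 0.14 (limma, adjusted p = 0.0027), and by 1.08 and 1.16 within the first and second scan day. Olfr307 was at 0.96 and 0.66 in HCC 2 and liver of mouse 3760, at -0.20, -0.17 and 0.14 in HCC 1, HCC 2 and liver of mouse 3151, and at 0.10, -0.22 and -0.08 in HCC 1, HCC 2 and liver of mouse 4033. Mouse 3760 exceeded mouse 3151 by 0.88 ± 0.15 (limma, adjusted p = 0.017) and mouse 4033 by 0.79 within the first day.

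Olfr745 on chromosome 14 was the one called gene with more than 1 probe. The called probe had levels of -1.14, -1.16 and -0.85 in HCC 1, HCC 2 and liver of mouse 3151, 0.11 and 0.04 in HCC 2 and liver of mouse 3760, and -0.10, -0.57 and 0.11 in HCC 1, HCC 2 and liver of mouse 4033. All 3 tissues of mouse 3151 were low. Mouse 3760 exceeded mouse 3151 by 1.12 on the log2 scale (SE 0.18), with a limma adjusted p of 0.013, and within the second day mouse 3151 was at -0.48 relative to mouse 4033. For mouse 4033 that day holds HCC 2 alone, whose forward array gave -1.33, within the -1.43 to -1.12 of mouse 3151, and whose dye-swap array gave 0.21. The other Olfr745 probes start 205 bases before and 270 bases after the called one, and in mouse 3151 they lay between -0.13 and 0.05 and between 0.18 and 0.50. The shift was therefore not shared by the other probes of the gene. In the other 41 receptor genes with several probes, means over tissues differed between probes by at most 0.23, against 0.56 in Olfr745.

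Olfr113 on chromosome 17, in a cluster next to the major histocompatibility region, took 3 levels. It was at -0.92, -1.03 and -0.88 in HCC 1, HCC 2 and liver of mouse 3151, at -0.43, -0.45 and -0.66 in HCC 1, HCC 2 and liver of mouse 4033, and at -0.13 and 0.12 in HCC 2 and liver of mouse 3760. Mouse 3760 exceeded mouse 3151 by 0.94 ± 0.12 (SE) and mouse 4033 by 0.54 within the first scan day, and mouse 4033 exceeded mouse 3151 by 0.43 ± 0.11 (limma, adjusted p = 0.0056 for the F-test). Forward arrays of mouse 3151 and mouse 4033 lay between -0.94 and -0.45 and their dye-swap arrays between -1.13 and -0.39. The nearest probes, for Olfr112 and Olfr114, were not called.

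V1rc15 and V1rd18 are named for V1r pheromone receptors, and the name V1rd18 matched no current symbol. V1rd18 on chromosome 7 was at 0.35, 0.53 and 0.52 in HCC 1, HCC 2 and liver of mouse 3151, at -0.18 and -0.02 in HCC 2 and liver of mouse 3760, and at -0.07, -0.17 and -0.35 in HCC 1, HCC 2 and liver of mouse 4033. Mouse 3151 was the higher, by 0.67 ± 0.11 (SE) over mouse 4033 (limma, adjusted p = 0.016) and by 0.64 within the second scan day. V1rc15 on chromosome 6, whose current symbol is Vmn1r32, was at -0.77, -0.74 and -0.59 in HCC 1, HCC 2 and liver of mouse 3151, at 0.16 and -0.15 in HCC 2 and liver of mouse 3760, and at 0.12, 0.25 and 0.16 in HCC 1, HCC 2 and liver of mouse 4033. The difference of 0.88 ± 0.11 between mice 4033 and 3151 (limma, adjusted p = 0.0029) came from one dye orientation. On forward arrays mouse 3151 lay between -1.95 and -1.58, and on dye-swap arrays between 0.11 and 0.70, where the other mice lay between -0.10 and 0.78. With orientations averaged, mouse 3151 was at -0.96 relative to mouse 4033 within the second scan day. Within the first, mouse 3760 was at -0.14 relative to mouse 4033.

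The V1rc15 probe is also the neighbour of Mad2l1, the gene floxed in these mice, whose probe starts 12.3 kb before it. The Mad2l1 probe had levels of -1.04, -1.53 and 0.04 in HCC 1, HCC 2 and liver of mouse 3151, 0.12 and 0.33 in HCC 2 and liver of mouse 3760, and 0.91, 0.20 and 0.67 in HCC 1, HCC 2 and liver of mouse 4033. It was low in both HCC of mouse 3151 and near 0 in the liver of that mouse, while V1rc15 was low in all 3 tissues. The next probe on the other side, 131 kb away, was not called.

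**Figure D3:**
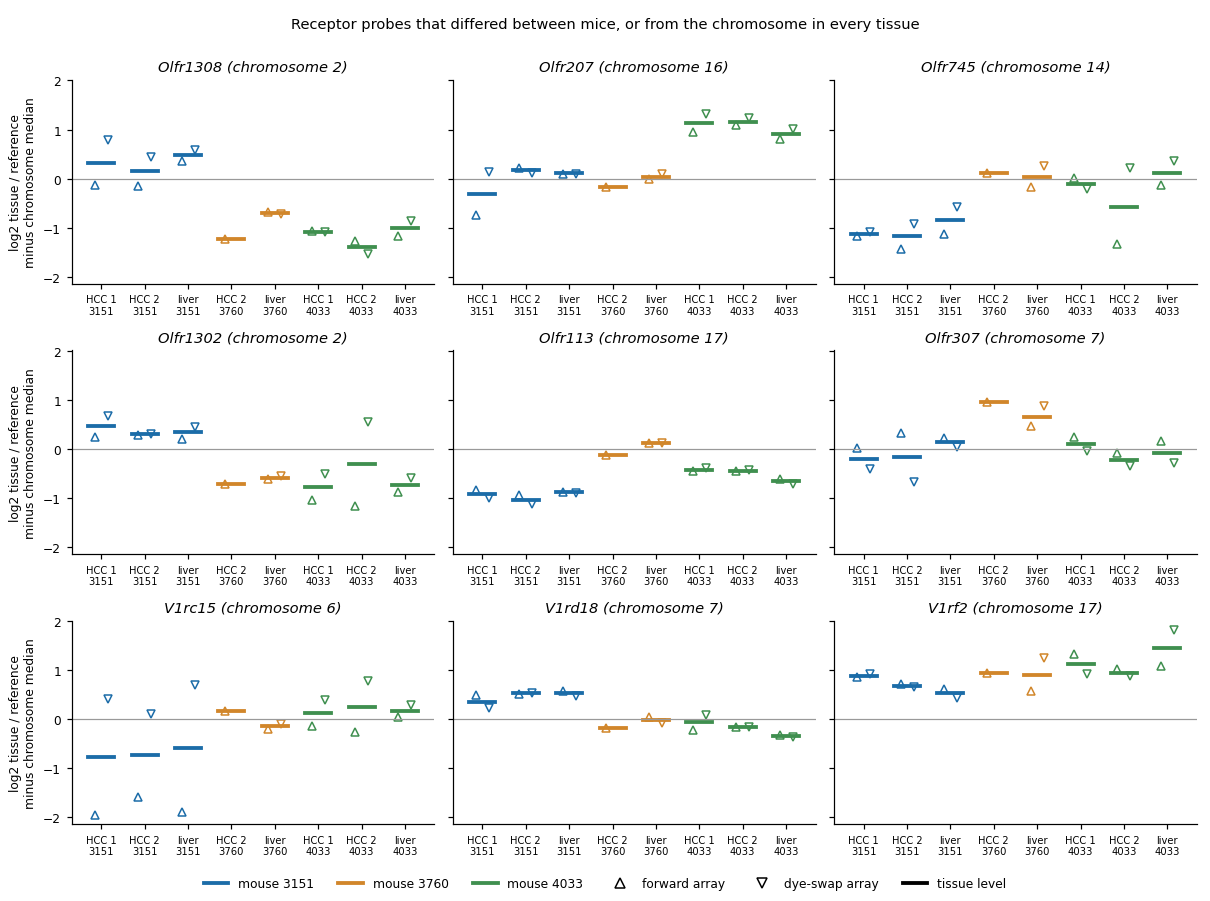
Each panel shows the log2 level of one receptor probe in the 8 tissues, with upward triangles for forward arrays, downward triangles for dye-swap arrays and bars for the tissue level, coloured by mouse. The tissues of one mouse lie together in the first 8 panels, V1rc15 in mouse 3151 has its orientations far apart (forward -1.95 to -1.58, swap 0.11 to 0.70), and V1rf2 lies above 0 on every array.

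No adjacent probe was called beside any of the 8, although Mad2l1, next to V1rc15, had mouse means of -0.84, 0.23 and 0.59 in mice 3151, 3760 and 4033 (limma, adjusted p = 0.17). The 2 nearest probes on each side of a called receptor probe held no other call in 8 of 8 cases, beside 71.4% (435) of the 609 probes called over the array. Counting 5 probes on each side, the sole call was that of Olfr1302 beside Olfr1308. With the scan day as a block, 3 of the 8 were still called, those for Olfr1308, Olfr207 and V1rc15, and on dye-swap arrays alone, an alternative chosen after the values were seen, 2 were, those for Olfr1308 and Olfr207. On forward arrays alone Olfr207 (limma, adjusted p = 0.15), Olfr307 (0.58) and Olfr745 (0.55) were not called. Olfr745, Olfr307 and V1rd18 lost their call without certain single tissues, and Olfr1308 and Olfr307, each well above background on 14 of 15 arrays, were not tested where all arrays had to be. Just outside the threshold lay Olfr1403 on chromosome 1, with mouse means of -0.29, 0.48 and 0.33 in mice 3151, 3760 and 4033 (limma, adjusted p = 0.079).

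**Figure D4:**
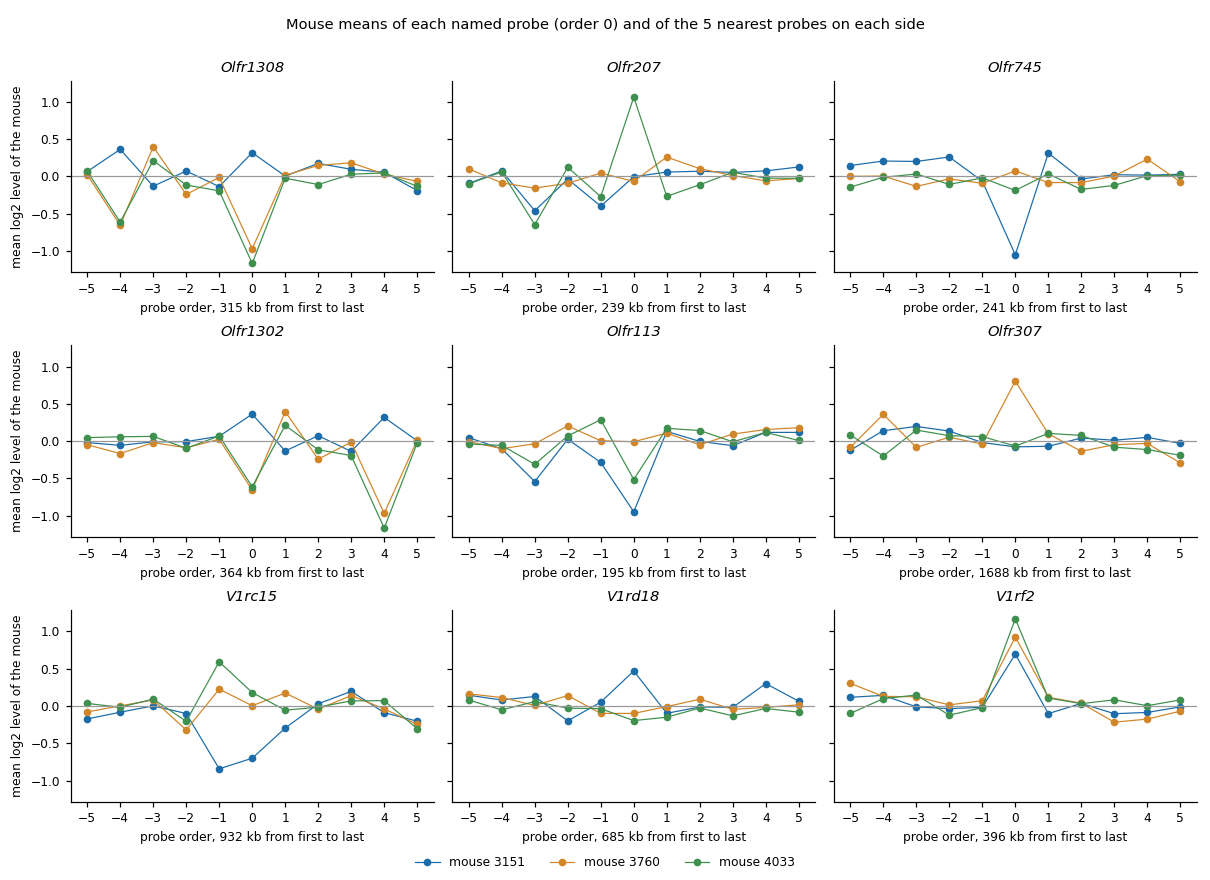
Mean log2 level of each mouse at the named probe (order 0) and at the 5 nearest probes on each side, with the span from first to last probe under each panel. The named probe has the widest spread of mouse means in its panel, apart from Olfr1302 and V1rc15. Olfr1302 and Olfr1308 appear in each other's panels 4 probes away, and the nearest probe left of V1rc15 is Mad2l1. Some neighbours differ less but in the same order of mice. A probe left of Olfr113 has means of -0.54, -0.03 and -0.31 in mice 3151, 3760 and 4033. A Zfp180 probe right of V1rd18 has 0.30, -0.02 and -0.03. Neither was called.

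V1rf2 on chromosome 17, a V1r pheromone receptor gene now named Vmn1r235, stood above its chromosome in every tissue. Its level was 0.88, 0.67 and 0.53 in HCC 1, HCC 2 and liver of mouse 3151, 0.95 and 0.90 in HCC 2 and liver of mouse 3760, and 1.12, 0.94 and 1.45 in HCC 1, HCC 2 and liver of mouse 4033, with a mean of 0.93 ± 0.28 (SD, n = 8 tissues). All 8 tissues were at least 0.53 up, with both the male and the female reference. It was the 1 receptor probe (0.137%) at least 0.3 above the chromosome in all 8 tissues, beside 0.0221% (9) of all probes, and 0 receptor probes lay as far below in all 8, beside 0.0319% (13) of all probes. The next probe of the cluster, for V1rf4 and 25.5 kb away, averaged 0.03. The mice did not differ in V1rf2 at the threshold (limma F-test, adjusted p = 0.49), and its probe was well above background on 14 of 15 arrays.

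HCC and unaffected liver were then compared, which was the comparison of the study. No receptor probe and no other autosomal probe was called between 5 HCC and 3 livers (limma, smallest adjusted p = 0.99994, 0% of all probes called). At an unadjusted p below 0.05, 8 receptor probes (1.09%) and 1.53% of all probes passed. This fit left out the pairing of tissues by mouse. With the mouse as a block 0 probes were called, and 11 receptor probes passed at an unadjusted p below 0.05, a count not made over all probes. The smallest unadjusted p values among receptor genes belonged to Olfr148, Olfr1176, Olfr732, Olfr677 and Olfr938. Olfr148 on chromosome 9 had levels from -0.23 to -0.0047 in HCC and from 0.03 to 0.10 in liver, a difference of -0.21 ± 0.08 (SE), and Olfr938 on the same chromosome ranged from 0.03 to 0.54 in HCC and from -0.58 to 0.05 in liver, a difference of 0.39 ± 0.16. The median standard error of such a difference over receptor probes was 0.10. Tumours and livers overlapped for Olfr938, and all of these differences failed the adjustment.

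Each HCC was also set against the liver of its own mouse, a comparison of single tissues that has no test. In HCC 1 of mouse 3151, 83 receptor probes (11.4%, against 19.2% of all probes) lay at least 0.3 from the liver, and in HCC 2 of this mouse 151 did (20.7%, against 24.5%). In HCC 1 of mouse 4033 19 did (2.6%, against 4.37%) and in HCC 2 105 (14.4%, against 14.8%). HCC 1 and liver of mouse 4033 were scanned on the first day, and HCC 2 on the second. In the comparison of HCC 2 with that liver, tumour and scan day cannot be told apart. HCC 2 of mouse 3760, with 1 array, had 154 such probes (21.1%, against 18.4%), 107 of them lower than in liver. In this tumour 30 of 31 clusters were below their level in liver, and the median receptor probe lay at -0.09 relative to liver, against 0.00 over all probes. With forward arrays alone in both tissues the median receptor probe lay at -0.10, against -0.01 over all probes, and the share was 17.4% against 16.1%. Relative to the chromosome, the median receptor level was -0.04 in this tumour and 0.05 in its liver, the lowest and the highest of the 8 tissues. Of the 31 clusters, 12 and 22 were below liver in HCC 1 and HCC 2 of mouse 3151. In HCC 1 and HCC 2 of mouse 4033, 8 and 10 were. Groups of other probes were not counted in this way, so the cluster counts are not shown to be particular to receptor clusters.

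The 2 tumours of a mouse shared part of these probes. Both were set against the same liver, and the cause of the overlap was not tested. In mouse 3151, 39 probes were past 0.3 in the same direction in both HCC and 2 in opposite directions, and in mouse 4033 the numbers were 9 and 1. No receptor probe differed from liver by 0.3 or more with one sign in all 5 HCC. These overlaps were not counted over all autosomal probes, so they say nothing particular to receptor probes. The receptor probes farthest from liver were Olfr1256 in HCC 1 of mouse 3151 (0.13 against -1.07 in liver), Olfr211 in HCC 2 of mouse 3151 (-1.01 against 0.32), Olfr1491 in HCC 2 of mouse 3760 (-1.32 against 0.04), Olfr1402 in HCC 1 of mouse 4033 (0.43 against -0.05) and Olfr958 in HCC 2 of mouse 4033 (0.69 against -0.11). A different gene led in each tumour, and for Olfr1256 the liver, not the tumour, was the tissue away from its chromosome.

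Among genes that work with these receptors, no probe was called. Of 30 genes for signal transduction, receptor transport and gene choice in sensory neurons, 22 were on the autosomal part of the array with 42 probes, among them Gnal and Adcy3, the G protein subunit and adenylyl cyclase of the olfactory cascade, and Lhx2 and Ebf1, transcription factors of olfactory neurons. None of the 42 probes was called between mice, beside 1.5% of all probes (1 at an unadjusted p below 0.05) and none between HCC and liver (0 unadjusted, limma). The widest difference was that of Rtp1, which carries receptors to the cell surface, with 0.71 between the highest and lowest mouse mean (limma, adjusted p = 0.25). Among 49 other chemosensory receptor genes and relatives, such as taste receptors (Tas1r and Tas2r), trace amine receptors (Taar), formyl peptide receptors (Fpr) and the Ms4a family, 0 of 63 probes were called between mice with limma (4 at an unadjusted p below 0.05, which 6.6% of all probes passed). The median distance between the highest and lowest mouse mean was 0.15 in both lists, 0.14 over receptor probes and 0.16 over all autosomal probes.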

How the data were processed

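Genomic DNA of 8 tissues was hybridised to Agilent 44K mouse CGH arrays. Per the file headers, the authors' intensity values were background-subtracted and dye-normalised with Agilent Feature Extraction 9.1.3.1, under one protocol name for each of 2 scan days. The deposited log10 ratios (red over green in the scanner files) equalled those of the series matrix apart from the sign on dye-swap arrays.

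Tissue over reference was computed on the log2 scale from these processed channels, with the sign turned on dye swaps. Outlier spots were dropped, spots of a probe averaged, arrays centred on the autosomal median, orientations averaged and the chromosome median of the tissue subtracted. limma 3.58.1 (lmFit, eBayes, R 4.3.3) was fitted on 40726 autosomal probes with Benjamini-Hochberg adjustment, threshold 0.05, by F-test between mice and two-sided between HCC and liver, and was tested on simulated data. Tables and plots used Python 3.11.15, pandas 2.3.3 and matplotlib 3.10.9. Tissues of one mouse pair the groups, and HCC and liver deviated together over probes within a mouse (r of 0.17 to 0.40) more than between mice (-0.33 to 0.11). The precision rests on the number of arrays and mice, and p-values between mice measure the spread between tissues of 3 animals.

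Named were the called members, at most 15 by distance between mouse means, those shifted in every tissue, the 5 smallest p between HCC and liver, in each HCC the member farthest from its liver, and clusters of at least 5 probes. Members, lists and rules were chosen with earlier results of these data known. Of 659 gene names, 593 are current symbols and 60 older symbols of 1 gene in the RefSeq table for GRCm38.p6. The other 6 were unmatched, among them Olfr207 and V1rd18. Shared runs were searched against all autosomal probes other than those of chromosome 18. Alternatives covered background correction, centring, dye orientation, outlier spots, dim probes, probe GC, blocks, thresholds and single tissues. Further tissues counted in the series text were not analysed here.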

Additional observations from a re-analysis of the deposited data

Results flagged for a closer look

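The 5 HCC were examined for single tumours far from the others in 45 quantities, the 31 clusters and the named probes. In 3 of these a tumour lay apart. A chance rate of about 1 in 20 would hold for 5 independent values. These HCC come from 3 mice, so the count is not to be set against that rate. The chromosome 15 cluster from Olfr284 to Olfr234 was at 0.34 in HCC 1 of mouse 3151 and between -0.06 and 0.05 in the other HCC. The chromosome 19 cluster from Olfr1418 to Olfr1500 was at -0.11 in HCC 2 of mouse 3760, which has 1 array, and between -0.01 and 0.02 in the others. Olfr307 was at 0.96 in HCC 2 of mouse 3760 and between -0.22 and 0.10 in the others, and the liver of mouse 3760 was at 0.66. Olfr307 was named because mouse 3760 differed from the others, and this mouse has 1 HCC, so its place apart follows from that choice and is not to be set against the chance rate.

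In 1 quantity the tumours of the female and of the males moved in opposite directions from their own livers. The chromosome 6 cluster from V1rb7 to V1ra9 (5 probes) was 0.05 and 0.10 above liver in the 2 HCC of mouse 3151 and between -0.12 and -0.06 relative to liver in the 3 HCC of the males, a difference of 0.16. This difference was not tested, and sex, Trp53 genotype and reference cannot be told apart in it.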

How the results depend on the processing

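Between mice, the count of 8 called receptor probes ran from 6 to 9 without single tissues and from 6 to 8 under the other settings, apart from 4 with scan day as a block and 2 on dye-swap arrays alone (chosen after the values were seen, with mouse 3760 left with 1 tissue assumed to vary like the others). V1rc15 reversed on dye-swap arrays, with 0.21 for mouse 3151 minus the others in place of -0.79. Olfr745 lost its call without HCC 1 (adjusted p = 0.077) or HCC 2 (0.078) of mouse 3151 or HCC 2 (0.075) or liver (0.052) of mouse 3760, V1rd18 without HCC 2 (0.074) or liver (0.081) of mouse 3151 or the liver of mouse 4033 (0.053), and Olfr307 without HCC 2 of mouse 3760 (0.30), all by limma. With normexp V1rc15 (0.058) and Olfr307 (0.061) were not called, nor V1rc15 (0.13) and V1rd18 (0.20) without chromosome centring. Between HCC and liver 0 probes were called in every setting, with the mouse as a replicate block too. At an unadjusted p 8 receptor probes passed, and 11 with that block. V1rf2 alone was shifted in every tissue, apart from 0 probes where all arrays had to be well above background, and 1 to 2 without single tissues (2 without the liver of mouse 4033). The mean share of receptor probes past 0.3 from own liver was 14.0%, ran from 12.2% to 17.7% without single tissues, and was 33.3% without chromosome centring (39.3% of all probes), 21.4% on forward arrays (22.7%) and 3.17% at a threshold of 0.5 (4.61%). Cluster means past 0.3 numbered 1, and 2 with normexp, 0 with local centring, 46 without chromosome centring, 3 on forward arrays, and 0 to 1 without single tissues (0 without HCC 1 of mouse 3151). By tumour, the share of receptor probes past 0.3 from own liver in HCC 2 of mouse 4033 exceeded that of all probes on forward arrays (25.9% against 24.3%). In HCC 1 of mouse 3151 it was 10.8% against 15.7% with local centring. Where no cause is evident from the setting, the cause was not tested. Weak dye agreement limits single-probe levels to shifts well above the noise.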
